A study of Mus musculus with 89 samples.

Results

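The genes described here handle iron and heme: Fth1 and Ftl1 (ferritin subunits), Hp (haptoglobin), Hmox1 (heme oxygenase 1), Slc40a1 (ferroportin) and Tfrc (transferrin receptor 1). They are 6 of the 19962 targets of a spatial expression panel, were chosen by name, and were all on the panel. The choice was made because Fth1 and Hp were lower at the interface of the naive slide than in its stroma, so that difference is described below and not tested. Tags were counted with the GeoMx digital spatial profiler, in which oligonucleotide tags hybridise to RNA on a tissue section and ultraviolet light releases the tags of a chosen region. The 89 regions, called segments here, came from frozen sections of mouse squamous cell carcinoma and were all labelled neutrophil, in a series on how neutrophils in different tumour regions respond to immunotherapy.

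Going by the deposited annotation, the naive slide had 15 stroma segments, 13 interface segments and 14 segments within the tumour. The acute slide held 9 stroma segments and 2 interface segments, and the relapse slide 14 stroma segments and 22 interface segments. The naive slide is pre-treatment, and the acute and relapse slides are post-treatment. The treatment agent, strain, genotype, sex and age of the mice, and the animals behind each segment, are not given in the sources used here. Stage and slide cannot be told apart, with 1 slide for each stage. The annotation names the relapse slide also by a word for treatment, and its scan name gives another tumour model than that of the naive slide. Segments share tissue pieces and probably animals, so p-values over segments are too small.

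Values are tag counts recovered from the deposited signal, with a floor of 1 count, at which a segment held 0 or 1 tag. A share is the count above this floor per 10000 counts above the floor in that segment. Depth was 7216 counts per segment in the median and ran from 574 to 208675, and 69.1% of all values were at the floor. The median depth was 10737 in naive stroma, 18307 in naive interface, 4439 within the naive tumour, 64652 in acute stroma, 3964 in relapse stroma and 3571 in relapse interface. Negative probes set a limit of quantitation for each segment, of at least 2 counts. Its median was 9.25 counts in acute stroma and 6.82 in acute interface, and 2 to 2.37 in the other classes. Background was not subtracted from counts or depth, so shares and counts above the limit are not fully alike between segments. Of the neutrophil markers, S100a8 was above this limit in 44 of 89 segments and S100a9 in 38. Ly6g was above it in 6 segments, and Cxcr2 and Csf3r in 4 each. The summed share of 14 neutrophil markers had class medians from 6.55 in naive interface to 9.77 in relapse interface among the 6 classes with more than 2 segments. A sum of 14 shares at the mean of all 19962 targets would also lie in this range, so these sums do not measure neutrophil content. Markers of other cells were also present in these segments. Fewer cells of a type and less RNA per cell cannot be told apart in such values.

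Ferritin is a hollow shell of heavy and light chains that stores iron in a form that does not react. The heavy chain, from Fth1, oxidises ferrous iron as it enters, and the light chain, from Ftl1, helps the mineral core to form. Iron enters most cells bound to transferrin through the transferrin receptor, and leaves through ferroportin, the known exporter of iron ions from mammalian cells. Haptoglobin is a plasma protein that binds free haemoglobin, and the complex is taken up by macrophages through Cd163. Heme oxygenase 1 then opens the heme ring and frees its iron. Translation of the ferritins and stability of the transferrin receptor's message are set by iron through iron regulatory proteins, so RNA levels do not give protein levels.

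All 6 genes matched RefSeq entries of GRCm38.p6, the patched form of the mm10 build that the submitters' processing notes name. Fth1 lies at chr19:9980600-9985111, Ftl1 at chr7:45457944-45459886, Hp at chr8:109575128-109579172, Hmox1 at chr8:75093618-75100593, Slc40a1 at chr1:45908070-45926532 and Tfrc at chr16:32608896-32632794, all protein-coding. The 250 bases before the start are shown for both ferritin chains, because these 2 members were the most often above the limit and their values moved together across the naive segments. The Fth1 window is the listed start 2 of 2, chr19:9982396-9982645 on the plus strand, and the Ftl1 window is chr7:45459887-45460136 on the minus strand. Start 2 was chosen after both Fth1 windows were read, and the window of start 1, chr19:9980350-9980599, held 1 TATAA match and no match to the other 3 motifs. Sequences are from RefSeq, written 5′ to 3′, with capitals for matches to CCAAT or GGGCGG on either strand.
Fth1: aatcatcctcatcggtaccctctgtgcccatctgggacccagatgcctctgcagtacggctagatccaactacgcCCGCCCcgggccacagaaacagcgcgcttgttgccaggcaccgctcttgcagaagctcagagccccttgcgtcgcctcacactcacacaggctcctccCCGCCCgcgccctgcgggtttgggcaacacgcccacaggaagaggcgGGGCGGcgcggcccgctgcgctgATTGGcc
Ftl1: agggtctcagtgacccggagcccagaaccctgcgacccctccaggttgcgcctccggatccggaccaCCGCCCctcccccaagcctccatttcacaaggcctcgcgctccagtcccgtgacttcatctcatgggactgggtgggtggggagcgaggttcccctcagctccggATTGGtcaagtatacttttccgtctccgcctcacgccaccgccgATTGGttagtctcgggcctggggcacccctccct
The printed Fth1 window held 1 CCAAT and 3 GGGCGG matches, and the Ftl1 window held 2 CCAAT and 1 GGGCGG match. Of 32851 promoter windows of the same length, 33.8% held CCAAT and 32.7% held GGGCGG. Neither printed window held TATAA, found in 22.8% of windows, or TGACNNNGC, found in 10.2%. These are matches of letters and say nothing about binding.

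**Figure D1:**
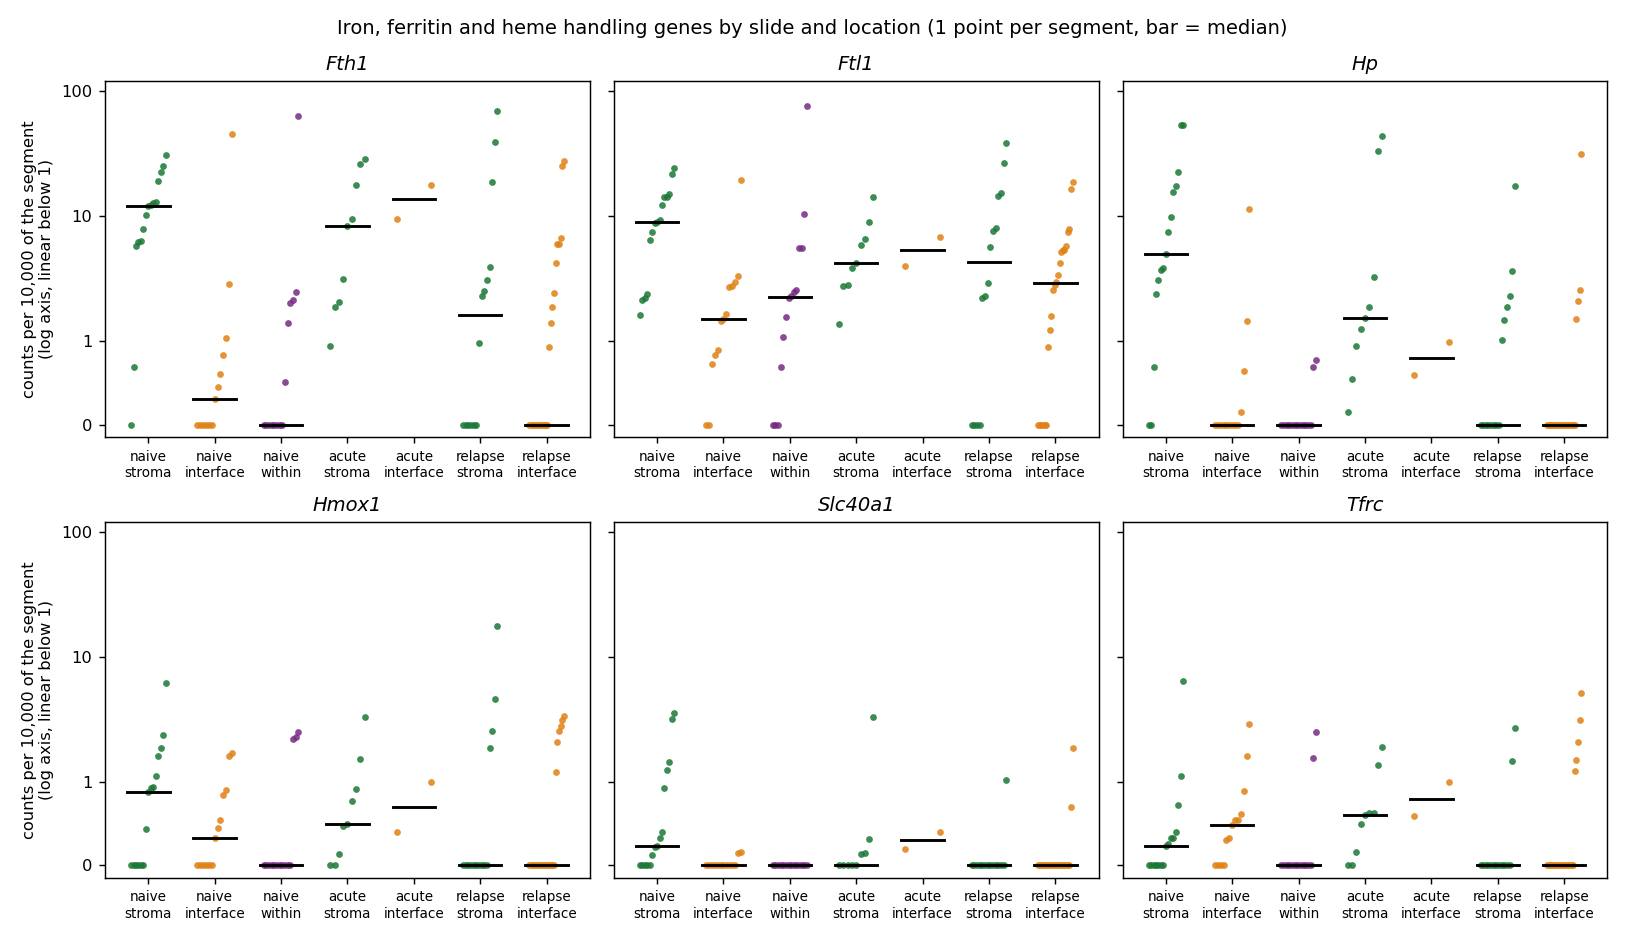
Counts per 10,000 counts of each segment for the 6 genes, 1 point per segment, in the 7 slide and location classes, with bars at class medians. The axis is logarithmic above 1 and linear below. On the naive slide Fth1, Ftl1 and Hp have their highest medians in stroma, and the Hp median is 0 at the naive interface, within the naive tumour and in both relapse classes. Hmox1, Slc40a1 and Tfrc sit at or near 0 in most segments.

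On the naive slide the iron storage genes Fth1 and Ftl1 had higher medians in the stroma than at the interface or within the tumour. In naive stroma Fth1 had 1 to 218 counts with a median of 9, a share of 0 to 30.8 with a median of 12, and it was above the limit of quantitation in 13 of 15 segments. In naive interface it had 1 to 29 counts with a median of 2 and a median share of 0.306, above the limit in 2 of 13 segments. Within the naive tumour the median was at the floor, with 1 to 8 counts, and 3 of 14 segments were above the limit. Only 1 of 13 interface segments and 1 of 14 segments within the tumour had a Fth1 share above the naive stroma median, and the ranges overlapped. The segment with 62.8 within the tumour was the highest of that class and shallow, with 6 counts of Fth1 at a depth of 796.

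On the other slides the Fth1 pattern was less even. In acute stroma Fth1 had 2 to 198 counts with a median of 16, a median share of 8.36, and was above the limit in 8 of 9 segments. The 2 acute interface segments had 49 and 90 counts, shares of 9.53 and 17.7. In relapse stroma it had 1 to 48 counts with a median of 2 and a share of 0 to 69.2 with a median of 1.63, above the limit in 5 of 14 segments. In relapse interface it had 1 to 6 counts, a median at the floor and a highest share of 27.5, above the limit in 7 of 22 segments. Ordered by median share, the classes ran from acute interface, where the median of its 2 segments was 13.6, and naive stroma through acute stroma, relapse stroma and naive interface to relapse interface and the naive tumour, both at 0. The range of each class overlapped with that of the next.

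Ftl1 was highest by median in naive stroma and lowest at the naive interface, and the order of the other classes was not that of Fth1. It had 3 to 235 counts in naive stroma with a median of 10, and was above the limit in all 15 segments, with a median share of 8.91. In naive interface the median was 4 counts and a share of 1.51, with 9 of 13 segments above the limit. Within the naive tumour the median was 2.5 counts and a share of 2.25, with 7 of 14 segments above the limit. In acute stroma all 9 segments were above the limit, with 3 to 123 counts, a median of 19 and a median share of 4.22. The 2 acute interface segments had 21 and 35 counts, shares of 3.97 and 6.75. The median share was 4.29 in relapse stroma, with 9 of 14 segments above the limit and a highest count of 27. It was 2.89 in relapse interface, with 7 of 22 above the limit and a highest count of 7. Of the 6 genes, Ftl1 was the one most often above the limit, in 58 of 89 segments against 40 for Fth1. These counts depend on the probes and do not rank the amounts of the RNAs.

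Haptoglobin tags had a higher median share in stroma than elsewhere on the naive and acute slides. On the relapse slide the median was 0 in both classes, and the highest share was 17.5 in stroma and 31.2 at the interface. In naive stroma Hp had 1 to 135 counts with a median of 15 and a median share of 5.01, and 11 of 15 segments were above the limit. In naive interface 9 of 13 segments were at the floor, the highest count was 8, and 2 segments were above the limit. Within the naive tumour 12 of 14 segments were at the floor, no segment was above the limit and the highest count was 2. Acute stroma had 2 to 89 counts with a median of 8, a share of 0.155 to 43.5 with a median of 1.53, and 5 of 9 segments above the limit. The 2 acute interface segments had 4 and 6 counts, below their limits. Relapse stroma had a highest count of 5 and relapse interface a highest count of 6, with 2 segments above the limit in each, 8 of 14 and 18 of 22 segments at the floor. The ranges of naive and acute stroma overlapped with those of every other class.

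The genes of heme degradation, export and uptake were near the floor. Hmox1 was above the limit in 13 of 89 segments. Its highest count was 10 in naive stroma, where 6 of 15 segments were above the limit, 7 in naive interface, 2 within the naive tumour, 20 in acute stroma, 13 in relapse stroma and 4 in relapse interface. The acute interface segments had 3 and 6 counts. Median shares were 0.874 in naive stroma, 0.494 in acute stroma and 0.332 in naive interface, and 0 within the naive tumour and in both relapse classes.

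Slc40a1 was above the limit in 2 segments, both in naive stroma, where it had 1 to 15 counts with a median of 2. It was at the floor in all 14 segments within the naive tumour. It reached at most 2 counts in naive interface, relapse stroma and relapse interface, and at most 4 in acute stroma, and the acute interface segments had 2 and 3. Tfrc was above the limit in 7 segments, with highest counts of 8 in naive stroma, 5 in naive interface, 3 within the naive tumour and 14 in acute stroma. Relapse stroma reached 2 counts and relapse interface 3, and the acute interface segments had 4 and 6. Tfrc medians were 2 counts in naive stroma and naive interface, 3 in acute stroma and 1 in the naive tumour and both relapse classes. Of the 7 classes only naive stroma held Slc40a1 above the limit, in segments with 4 and 15 counts. The median limit was higher in acute stroma, at 9.25 counts, and in acute interface, at 6.82, so this count is not alike between classes. As shares, the Tfrc ranges of all classes overlapped. As counts, acute interface lay above the naive tumour and both relapse classes.

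Differences between classes were fitted on log2 counts scaled to a common total, with the segment's depth as a covariate. Fth1, Ftl1, Hp and Hmox1 were among the 5087 targets that passed the filter on low values. Slc40a1 and Tfrc did not pass it and were fitted over all 19962 targets. Most segments in which Fth1 and Hp exceeded their limit were stroma segments, so passing the filter is no support for the stroma difference.

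**Figure D2:**
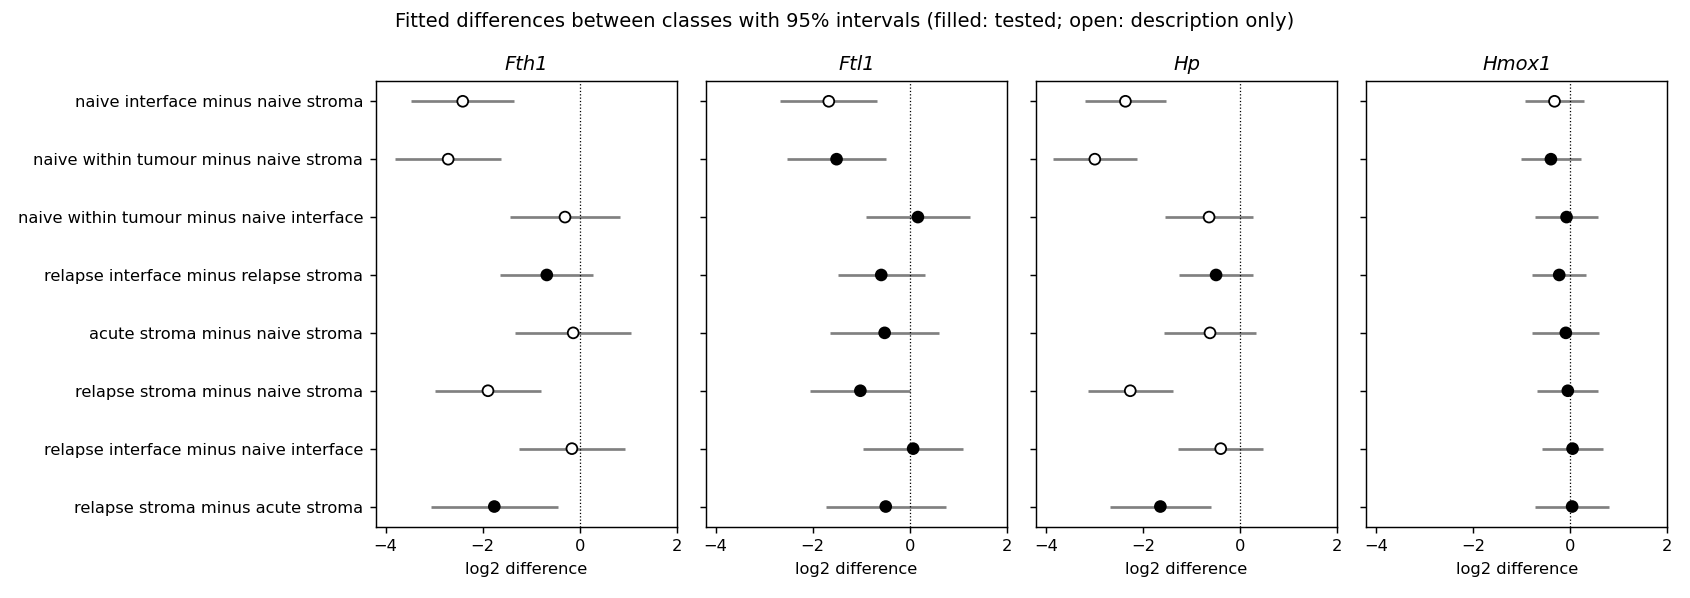
Fitted log2 differences between classes with 95% intervals for the 4 genes that passed the filter, 1 panel per gene. Filled points were tested, and open points are described only, since they use the segments on which the genes were chosen. The naive interface and naive tumour values of Fth1 and Hp lie at -2.36 or below against naive stroma, and the relapse interface values lie between -0.68 and -0.22.

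In the naive interface minus naive stroma contrast, which chose the genes, Fth1 was -2.41 (SE 0.535) and Hp -2.36 (SE 0.425). Ftl1 was -1.67 (SE 0.504), Hmox1 -0.32 (SE 0.309), Slc40a1 -0.59 (SE 0.163) and Tfrc 0.13 (SE 0.247). Over all 5087 targets 0.904% passed an adjusted p of 0.05, and 0.845% passed it as lower, and over all 19962 targets 0.105% passed. Within the naive tumour against naive stroma, Fth1 was -2.71 (SE 0.55) and Hp -2.99 (SE 0.437). In the same contrast Ftl1 was -1.51 (SE 0.518, 95% interval -2.53 to -0.485, adjusted p = 0.115) and Hmox1 -0.40 (SE 0.317, adjusted p = 0.683). Neither passed, where 2.1% of targets did. Ftl1 passed with a stricter filter, in fewer targets (adjusted p = 0.0318), without segments under 2000 counts (adjusted p = 0.0209) and on the values as deposited (adjusted p = 0.00711). With tissue piece as a covariate it was -0.96 (adjusted p = 1), and under the other alternatives the adjusted p lay between 0.107 and 0.425.

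Slc40a1 was lower within the naive tumour than in naive stroma when fitted over all targets (-0.66, SE 0.167, adjusted p = 0.0383), where 0.371% of targets passed in either direction and 0.306% as lower. It was at the floor in 14 of 14 tumour segments and in 5 of 15 stroma segments, and the size of the fitted value depends on the prior count. Median depth was 4439 in the naive tumour and 10737 in naive stroma, so these numbers at the floor are not alike between the classes. The adjusted p was 0.133 without naive tissue piece 1, 0.311 without piece 4, 0.297 without piece 5, 0.0942 without segments under 2000 counts and 0.0604 with a prior count of 5. It was 1 with tissue piece as a covariate. Tfrc was -0.17 (SE 0.254, adjusted p = 0.918). Between the naive tumour and naive interface Fth1 was -0.30 (SE 0.576) and Hp -0.64 (SE 0.458), and Ftl1 was 0.17 (adjusted p = 0.998). The Fth1 value there turned to 0.20 on the values as deposited. In limma's fit 0 of 5087 targets passed there, with 235 at an unadjusted p under 0.05.

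The relapse slide gave segments that played no part in the choice. There Fth1 was -0.68 at the interface against the stroma (SE 0.485, 95% interval -1.64 to 0.278, adjusted p = 0.784). Without relapse piece 1 it was -1.54 (adjusted p = 0.517), and without piece 2 it was -0.47 (adjusted p = 0.846). Hp was -0.49 (SE 0.385, 95% interval -1.25 to 0.267, adjusted p = 0.817) and Ftl1 -0.59 (SE 0.457, 95% interval -1.49 to 0.312, adjusted p = 0.813). Hmox1 was -0.22 (adjusted p = 0.873), Slc40a1 0.02 (adjusted p = 0.987) and Tfrc 0.19 (adjusted p = 0.907). None of the 6 passed, where 0.0197% of the filtered targets and 0.01% of all targets did. The intervals of Fth1, Hp and Ftl1 include both 0 and falls of over 1 on the log2 scale. Of 22 relapse interface segments, 8 had a Fth1 share above the relapse stroma median and 4 had a Hp share above it. Whether the interface difference itself differs between the naive and relapse slides was not tested.

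Between slides, stroma was compared with stroma. Relapse stroma minus acute stroma, also outside the choice, was -1.76 for Fth1 (SE 0.664, 95% interval -3.07 to -0.448, adjusted p = 0.25) and -1.64 for Hp (SE 0.528, 95% interval -2.68 to -0.601, adjusted p = 0.13). Neither passed, where 0.57% of targets did. On plate H alone, the plate both slides share, the Fth1 value was -0.30 and the Hp value -0.46. Ftl1 was -0.50 (adjusted p = 0.845) and turned to 0.52 on plate H alone. Hmox1 was 0.04 (adjusted p = 0.988), Slc40a1 -0.30 (adjusted p = 0.875) and Tfrc -0.31 (adjusted p = 0.95).

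Relapse stroma minus naive stroma was -1.89 for Fth1 (SE 0.553) and -2.26 for Hp (SE 0.439), described only. In that contrast Ftl1 was -1.02 (SE 0.521, adjusted p = 0.462), Hmox1 -0.05 (adjusted p = 0.971), Slc40a1 -0.59 (adjusted p = 0.174) and Tfrc -0.16 (adjusted p = 0.936), where 1.55% of filtered targets and 0.145% of all targets passed. Acute stroma minus naive stroma was -0.13 for Fth1 (SE 0.604) and -0.62 for Hp (SE 0.48), and these turned to 0.37 and 0.30 on plate G alone. Ftl1 was -0.52 (95% interval -1.64 to 0.602) and Hmox1 -0.09 (95% interval -0.776 to 0.599) there, Slc40a1 -0.28 and Tfrc 0.15, none past the threshold. In limma's fit 0 of 5087 targets passed in that contrast, with 217 at an unadjusted p under 0.05. Relapse interface minus naive interface was -0.16 for Fth1 and -0.40 for Hp, and these turned to 0.49 and 0.26 on the values as deposited. Ftl1 was 0.07 (adjusted p = 0.985), Hmox1 0.05 (adjusted p = 0.981), Slc40a1 0.02 (adjusted p = 0.99) and Tfrc -0.10 (adjusted p = 0.969), where 0.236% of filtered targets and 0.0351% of all targets passed. These contrasts share the naive segments, and no plate held segments of both the naive and relapse slides: plate G held the former and plate H the latter.

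**Figure D3:**
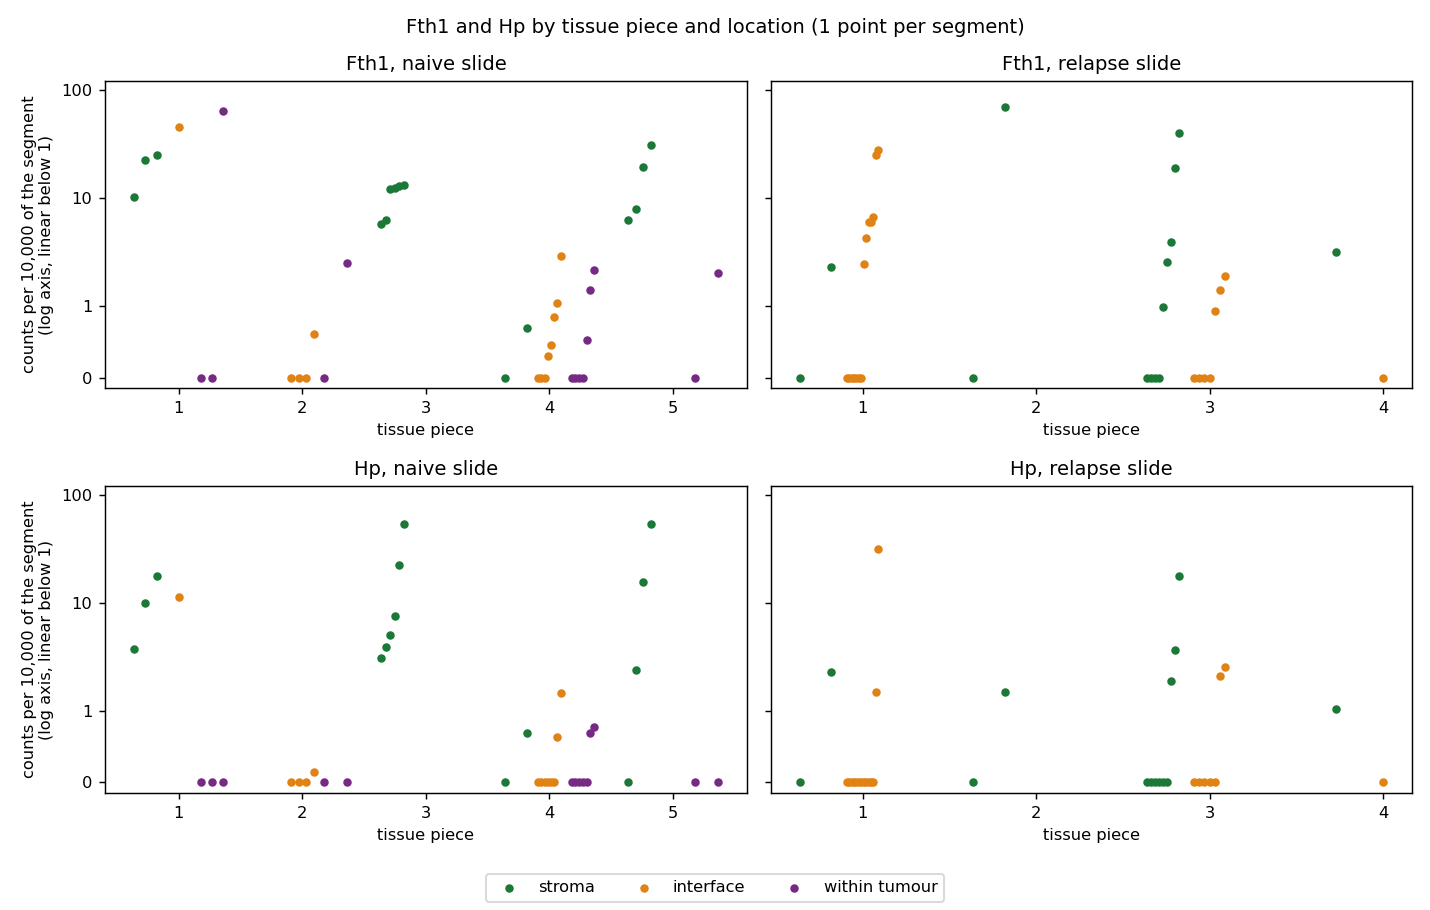
Fth1 (top) and Hp (bottom) as counts per 10,000 counts of each segment, by tissue piece on the naive slide (left) and relapse slide (right), 1 point per segment, coloured by location. The axis is logarithmic above 1 and linear below. On the naive slide pieces 1 and 4 hold both stroma and interface: all of piece 1's stroma and its interface segment are high for Fth1, and all of piece 4 is at 2.86 or below.

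Values followed the tissue piece as well as the location. Pieces were grouped from the scan positions of the segments, since the annotation does not name them, which gave 5 on the naive slide, 5 on the acute slide and 4 on the relapse slide. Naive piece 1 held 3 stroma segments with Fth1 shares of 10.1, 22.5 and 25, and its only interface segment had 45.3. Naive piece 4 held 2 stroma segments with Fth1 shares of 0 and 0.692, and its 8 interface segments had 0 to 2.86 with a median of 0.376. The other 4 interface segments lay in piece 2, which held no stroma, and had Fth1 shares of 0 to 0.605. The other 10 stroma segments lay in pieces 3 and 5, which held no interface, and had 5.74 to 13 and 6.24 to 30.8. In both naive pieces that held stroma and interface, the Fth1 ranges therefore did not place the interface below the stroma.

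Hp gave the same picture in those pieces. In naive piece 1 its stroma shares were 3.73, 9.9 and 17.5, and the interface segment had 11.3. In naive piece 4 the stroma shares were 0 and 0.692, and the interface shares 0 to 1.44. With tissue piece as a covariate, added after the data were seen, the naive interface minus stroma values were -0.90 for Fth1 (SE 0.743), -1.26 for Hp (SE 0.605) and -0.88 for Ftl1 (SE 0.69). The number of targets passing in that contrast went from 46 to 0 of 5087, and within the naive tumour against naive stroma from 107 to 2. Only naive pieces 1 and 4 held both stroma and interface, and the SE of Fth1 in the interface contrast rose from 0.535 to 0.743. With such wider errors, the drop in calls does not tell how much of the difference follows the piece. With piece as a covariate the tumour values of Fth1 and Hp were -1.49 (SE 0.697) and -1.98 (SE 0.568). Relapse piece 3 held 9 stroma segments with Fth1 shares of 0 to 39.4 and 7 interface segments with 0 to 1.87. Relapse piece 1 held 14 interface segments with 0 to 27.5 and 2 stroma segments at 0 and 2.28.

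In acute stroma the median levels differed by plate. The 4 segments of plate G had a median Fth1 share of 22, against 3.15 in the 5 of plate H, with ranges of 1.86 to 28.4 and 0.945 to 9.44. For Hp the medians were 18.2 and 1.26 in the same order, and the ranges overlapped, since plate G also held the lowest value. Tissue piece 1 held acute stroma segments of both plates. Its 3 segments of plate G had Fth1 shares of 17.8, 26.2 and 28.4 and Hp shares of 3.27, 33.2 and 43.5. Its segment of plate H had 8.36 and 1.26. The estimated mean background count per negative probe, which was not subtracted, also differed. It was 0.193 to 3.21 in the acute stroma segments of plate G and 1.14 to 7.10 in those of plate H. The plate G segment with the lowest Fth1 and Hp shares had 3.21. The part of background in the plate difference was not tested.

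One relapse stroma segment stood out for ferritin and heme oxygenase together. It had 48 counts of Fth1, a share of 69.2, 27 counts of Ftl1, a share of 38.3, and 13 counts of Hmox1, a share of 17.7. Each was the highest share of its gene in relapse stroma. The same segment had 8 counts of Cd163, the receptor for haptoglobin bound to haemoglobin, and a summed macrophage marker share of 66.2, at a depth of 6794. Hp was at 2 counts there. Without tissue piece 2, in which it lies, the relapse interface minus stroma value of Hmox1 was 0.0034, with its sign turned.

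Among the other genes of iron and heme handling that were tested, no called change was seen. A list of 58 genes by role had 57 on the panel, of which 22 passed the filter, 18 beside the members. None of these 18 passed in any of the 8 comparisons, in which 0 to 2.1% of all 5087 tested targets passed. With shares this low, 0 of 18 says little about these genes. The rest of the 51 other list genes on the panel were too low to be tested. The median difference of the 18 tested genes was -0.07 in naive interface minus stroma, against 0.03 over all targets tested, with 10 of 18 below 0. In relapse interface minus stroma it was -0.16 against 0.00, with 11 of 18 below 0. In relapse stroma minus acute stroma it was 0.06 against 0.06, with 6 of 18 below 0.

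Among partners of the members, Trf, which encodes the plasma iron carrier transferrin, was -1.0 in naive interface minus stroma (SE 0.303, adjusted p = 0.0937) and -1.02 in relapse interface minus stroma (SE 0.275, adjusted p = 0.185). Lrp1, the receptor that clears heme bound to hemopexin, was -0.77 in the naive contrast (SE 0.245, adjusted p = 0.117) and -0.20 in the relapse contrast (adjusted p = 0.85). In the same naive contrast, Pcbp1, an iron chaperone that delivers iron to ferritin, was -0.71 (adjusted p = 0.435). Slc11a2, the iron transporter of endosomes, had -0.12 there (adjusted p = 0.948). Ireb2 and Aco1, the iron regulatory proteins, were -0.43 (adjusted p = 0.604) and 0.19 (adjusted p = 0.87). Gpx4, which reduces lipid peroxides and limits iron-driven cell death, was 0.25 (adjusted p = 0.874). Cd163 did not pass the filter: it was above the limit in 4 of 15 naive stroma segments, 2 of 13 naive interface segments and at the floor in all 14 within the naive tumour. Lcn2 and Ltf, iron-binding proteins of neutrophil granules, were above the limit in 5 and 0 of 89 segments.

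The targets whose scaled log2 counts were most like those of each member were ranked over the 89 segments, as a description in which the points share slides and tissue pieces. For Fth1 they were Ctss (r = 0.846), Apoe (r = 0.802), B2m (r = 0.789), C1qb (r = 0.779) and Psap (r = 0.753). Within slides Ctss, the lysosomal protease cathepsin S, had r = 0.893 over 42 naive segments and 0.752 over 36 relapse segments. C1qb, a complement chain and 1 of the 10 macrophage markers listed, had 0.777 and 0.854. For Ftl1 they were Apoe (r = 0.65), Ctss (r = 0.633), B2m (r = 0.61), Fth1 (r = 0.604) and Psap (r = 0.595). The correlation of Ftl1 with Fth1 was 0.813 over the naive segments and 0.337 over the relapse segments.

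For Hp the most alike was Cfd, which encodes adipsin, with r = 0.898 over all segments, 0.899 over the naive and 0.878 over the relapse segments. Serpina3n (r = 0.8), Cxcl14 (r = 0.764), Sparc (r = 0.759) and C4b (r = 0.741) followed. For Hmox1 they were Plbd2 (r = 0.592), Ctsl (r = 0.471), Mfsd1 (r = 0.45), Mpeg1 (r = 0.426) and Gatad2b (r = 0.424). Fth1 and Hp correlated at 0.592. Correlations with log2 depth were 0.0829 for Fth1, 0.0183 for Ftl1, 0.114 for Hp and 0.0805 for Hmox1.

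**Figure D4:**
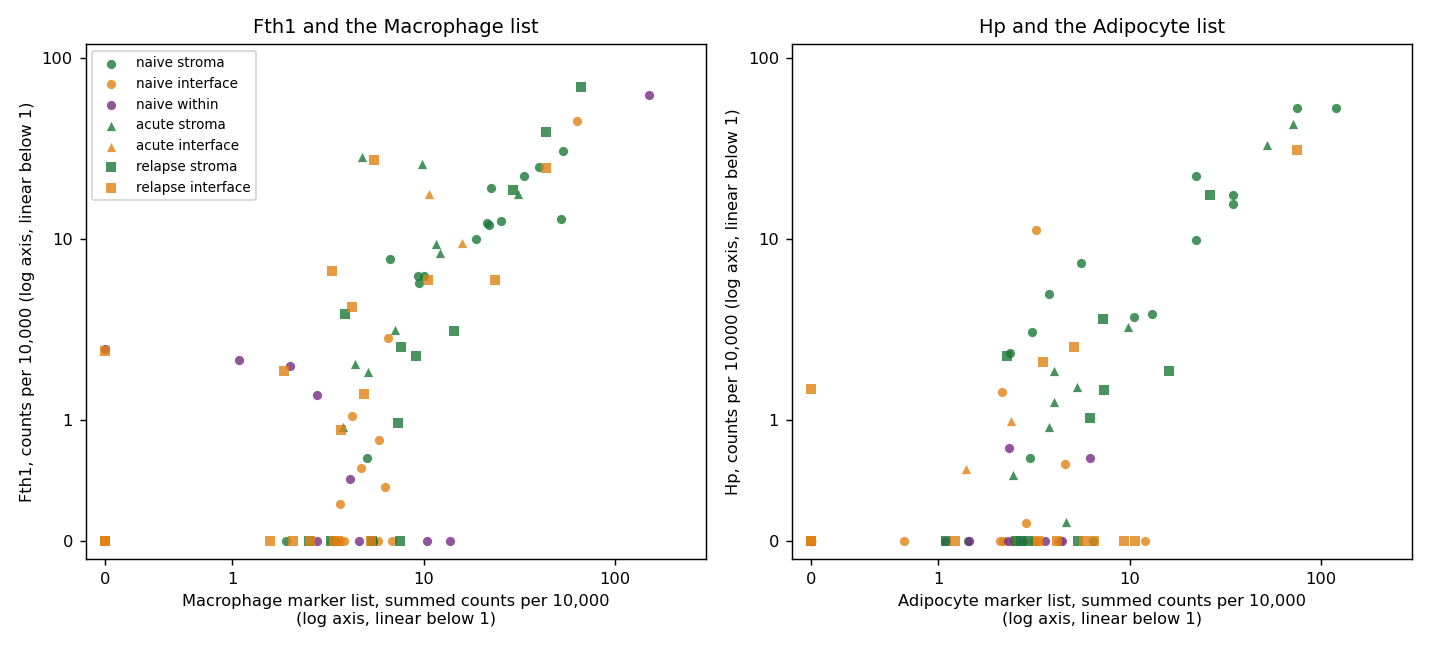
Fth1 against the summed share of 10 macrophage markers (left) and Hp against the summed share of 7 adipocyte markers (right), as counts per 10,000 counts of each segment, 1 point per segment. Both axes are logarithmic above 1 and linear below, colours give location and shapes give slide. Segments with high Fth1 mostly have high macrophage sums, with exceptions at sums near 5, and segments with Hp above 15 all have adipocyte sums above 20.

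On the naive slide the macrophage marker sum, like Fth1, had its highest median in stroma. The summed share of the 10 macrophage markers had a median of 21.5 in naive stroma (1.91 to 53.3), 5.31 in naive interface (3.28 to 63.1) and 3.11 within the naive tumour (0 to 151). It was 7.11 in acute stroma, 7.43 in relapse stroma and 2.94 in relapse interface. In acute and relapse stroma, where these medians were close, the median Fth1 shares were 8.36 and 1.63. These 2 classes also differed in median depth, 64652 against 3964, and in median background per negative probe, 3.21 against 0.31, which was not subtracted. A sum of 10 shares at the mean of all 19962 targets would lie close to the naive interface median. In naive stroma and naive interface all 10 markers were above the limit in at least 1 segment. Within the naive tumour 6 were, and Marco was at the floor in all 14 segments. Of the 9 macrophage markers tested, 2 fell from naive stroma to the naive tumour, where 2.1% of all targets passed: C1qc (-1.59, adjusted p = 0.00517) and Csf1r (-1.24, adjusted p = 0.0246). The other 7 did not pass, with values from -1.30 for C1qa to -0.09 for Marco. In naive interface minus stroma 0 of the 9 passed, with 8 of 9 below 0 and a median of -0.51. The naive interface segment with the highest Fth1 share had a macrophage sum of 63.1, and the tumour segment with the highest had 151. The part of macrophage RNA in the Fth1 and Ftl1 values was not tested.

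The 7 adipocyte markers had a median summed share of 10.5 in naive stroma (1.43 to 119), 3.12 in naive interface (0.727 to 12), 1.26 within the naive tumour (0 to 6.19), 4.64 in acute stroma, 2.81 in relapse stroma and 0 in relapse interface. A sum of 7 shares at the mean of all 19962 targets would lie close to the naive interface median. The stroma segment with the most Hp, 135 counts, had 145 counts of Cfd and an adipocyte sum of 119. In acute stroma the segment with the most Hp, 89 counts, had 74 counts of Cfd and a sum of 71.6. The relapse interface segment with the highest Hp share, 31.2, had 8 counts of Cfd and a sum of 74.8. The naive interface segment with the highest Hp share, 11.3, had Cfd at the floor and a sum of 3.23. Of the 5 adipocyte markers tested, 1 passed in naive interface minus stroma, where 0.904% of all targets did: Cfd, which fell by 2.28 (SE 0.424, adjusted p = 0.000218). Hp was chosen on this contrast and Cfd was the target most correlated with Hp, so the fall of Cfd is no separate support. There Fabp4 was -1.43 (adjusted p = 0.0739), Adipoq -0.28 (adjusted p = 0.827), Plin1 -0.14 (adjusted p = 0.921) and Lep 0.40 (adjusted p = 0.657). The part of adipocyte RNA in the Hp values was not tested.

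Fibroblast markers had a median summed share of 190 in naive stroma, 15.4 in naive interface and 5.36 within the naive tumour. They had 34.4 in acute stroma, 14.1 in relapse stroma and 34 in relapse interface. Keratinocyte markers had a median of 9.55 in naive stroma, 8.0 in naive interface and 15.5 within the naive tumour (5.43 to 303). Their median was 14.2 in acute stroma, 70.3 in relapse stroma and 135 in relapse interface. The parts of fibroblast and keratinocyte RNA in the values of the 6 genes were not tested.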

How the data were processed

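The matrix deposited by the authors gives a normalised signal for every target in every segment. Their annotation lists each segment's slide, location and upper-quartile factor. The deposited factor is a ratio by which the counts were divided, as checked on the values. Multiplied by it, 99.986% of the values were whole within 1e-06. Per the submitters' processing notes Seurat and mm10 were used. The aligner and the counter are not given in the sources used here. Values of 1 fitted zeros raised to 1 better than 1 added to every count.

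Counts less 1 were turned into log2 CPM with a prior count of 2. Targets above the limit of quantitation (the larger of 2 counts and the negative probes' geometric mean times their geometric SD to the power 2) in 10% of segments were tested. limma 3.58.1 in R 4.3.3 (lmFit, eBayes with trend, two-sided) fitted 7 class means and log2 depth, with a threshold of 0.05 on p-values adjusted by Benjamini-Hochberg across tested targets. Tissue pieces were joined where scan positions lay within 7000 units, a rule chosen after the files were seen. The 6 members and all lists were chosen with earlier results of these data known. Genes named are all members, from the iron list those past the threshold or among the 3 with the highest mean share in their role, and the 5 targets most correlated with each member. Marker genes were named from the marker lists after their values were seen. The fit was tested on simulated data without tissue piece, slide or plate effects, so that test says nothing about them. p-values measure the spread between segments, which may be technical.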

Additional observations from a re-analysis of the deposited data

Results flagged for a closer look

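In acute stroma, the only class with 4 to 10 segments, 1 segment lay far from the other 8 for 2 genes. Its Hmox1 share was 3.27 per 10000, against 1.53 in the next segment, a gap of 0.533 of the range. Its Slc40a1 share was also 3.27, against 0.309 in the next, a gap of 0.906 of the range. Both values came from 2 counts of each gene at a depth of 3054, on plate G in tissue piece 1. The 6 genes were examined. The cutoff sets apart about 1 in 20 groups of normally spread values. Floored shares from segments of unlike depth are not such values, so the chance rate here is not known.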

How the results depend on the processing

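The direction of Fth1 and Hp in naive interface minus stroma and in the naive tumour minus stroma was the same under every alternative run. Both contrasts use segments on which these genes were chosen, so the kept direction is no support for a difference. Fth1 ran from -3.45 to -0.90 in the former, with tissue piece as a covariate giving -0.90. Hp was -3.54 and -4.35 in these contrasts with a prior count of 0.5, and -1.78 in acute minus naive stroma without acute piece 1. No adjusted p of Fth1, Ftl1, Hp or Hmox1 passed in relapse interface minus stroma (lowest 0.517) or relapse minus acute stroma (lowest 0.0719).

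Counts of called targets moved more. In naive interface minus stroma 46 became 21 without the filter, 546 on deposited values, 26 with floored values at 0 and 0 with piece as a covariate. In the naive tumour minus stroma 107 became 168 without the depth covariate, 206 on deposited values and 2 with piece. In the naive tumour minus interface 0 became 2 with a prior of 0.5, 1 with the limit in 25% of segments, 2 with piece and 2 without segments under 2000 counts. In relapse interface minus stroma 1 became 2 without the filter, 0 on deposited values and 4 without shallow segments. In acute minus naive stroma 0 became 2 with a prior of 0.5, 1 without the depth covariate, 6 on deposited values, 4 without shallow segments and 7 on plate G. In relapse minus naive stroma 79 became 29 without the filter and 51 with floored values at 0. In relapse minus naive interface 12 became 7 without the filter, 181 without the depth covariate, 74 on deposited values and 24 without shallow segments. In relapse minus acute stroma 29 became 77 with the stricter filter, 68 without the depth covariate, 50 on deposited values and 2 on plate H. Fewer targets were tested with the stricter filter and more without a filter; the cause of the other moves was not tested.

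Leaving out 1 tissue piece gave 4 to 52 calls in naive interface minus stroma (4 without naive piece 4, 15 without piece 3, 18 without piece 2), 53 to 99 in the naive tumour minus stroma (53 without naive piece 4), 0 to 2 in the tumour minus interface, 0 to 13 in relapse interface minus stroma (13 without relapse piece 3), 0 to 1 in acute minus naive stroma, 16 to 72 in relapse minus naive stroma (16 without relapse piece 3, 24 without naive piece 3), 4 to 18 in relapse minus naive interface (4 without naive piece 4) and 4 to 44 in relapse minus acute stroma (4 without acute piece 1, 44 without relapse piece 2). Piece as a random block had a correlation of 0.0037 and moved no count by over 1.5 times.

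Values near 0 changed sign. Fth1 turned to 0.37 on plate G in acute minus naive stroma (left-out range -1.12 to 0.16), to 0.075 without the depth covariate and 0.20 on deposited values in the tumour minus interface, and to 0.0081 with a prior of 0.5, 0.34 without the depth covariate and 0.49 on deposited values in relapse minus naive interface (-0.85 to 0.30). Hp turned to 0.30 on plate G in acute minus naive stroma and 0.26 on deposited values in relapse minus naive interface. For Ftl1 these were the tumour minus interface at -0.076 with piece and -0.025 without shallow segments (left-out range -0.13 to 0.24), relapse interface minus stroma at 0.046 with piece, relapse minus naive interface at -0.018 with a prior of 5 (-0.23 to 0.41) and relapse minus acute stroma at 0.52 on plate H (-0.84 to 0.040). For Hmox1 they were the tumour minus interface at 0.070 on deposited values and 0.083 with piece (-0.22 to 0.085), relapse interface minus stroma (-0.91 to 0.0034), acute minus naive stroma at 0.049 on plate G (-0.37 to 0.030), relapse minus naive stroma at 0.028 with a prior of 5 (-0.30 to 0.55), relapse minus naive interface at -0.020 with floored values at 0 (-0.25 to 0.17), and relapse minus acute stroma at -0.18 with a prior of 0.5, -0.0087 without the depth covariate, -0.086 with floored values at 0 and -0.14 without shallow segments (-0.22 to 0.63). No adjusted p passed there.

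A planned count model was not run: the values come as 1 column over segments of 9 different factors, in which a single step did not give enough whole values, although 99.986% were whole with each segment's own factor. Setting floored values to 0, piece as a covariate, leaving out segments under 2000 counts and the single plates were chosen after seeing the data. Depth limits Hmox1, Slc40a1 and Tfrc most, with 51, 68 and 54 of 89 segments at the floor.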
